A study of Mus musculus with 6 samples.

Results

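The proteasome subunit genes described here were the rows of the deposited counts whose symbol is Psm, then a letter from a to g, then a number. There were 43 of them among 12107 genes. They were 16 core genes (Psma and Psmb), 23 regulatory genes (Psmc, Psmd and Psme) and 4 genes of assembly chaperones (Psmg). Psma6, Psma8, Psmb11, Psmd5 and Psmf1 were not analysed here.

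ChIP-seq for POLR2A, the catalytic subunit of RNA polymerase II (Pol II), was done with an N-terminal antibody in mouse neural precursor cells (NPCs). The KO group was 3 libraries of Armc5 knockout NPCs, from fetuses in which the gene was deleted in the whole body. The WT group was 3 libraries of NPCs from wild-type fetuses. Both groups were labelled 129 sv X CD1, were taken from the ganglionic eminences at e13.5, and were grown as neurospheres to the second passage with epidermal growth factor, so the cells had been expanded in culture before fixation. The study describes KO and WT libraries of the same number as a replicate pair. ARMC5 is the part of a cullin 3 ubiquitin ligase that binds POLR2A. Each gene had 3 counted regions. The promoter ran from 400 bases upstream to 100 downstream of the start of transcription, the TES region began 100 bases before its end (TES) and reached 2000 bases past it, and the gene body lay between them.

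The proteasome is the protease that degrades proteins marked with ubiquitin. Its 20S core is a barrel of alpha rings, which gate the entrance, and beta rings, which hold the catalytic sites. The 19S regulatory particle sits on the barrel, where a base with ATPases unfolds the substrate and a lid takes the ubiquitin off. Cells lacking proteasome activity are known to raise the transcription of subunit genes together through the factor NRF1 (gene Nfe2l1), which binds antioxidant response elements in their promoters. Ubiquitinated POLR2A is itself a substrate of the proteasome.

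Totals over the 3 regions were 16056262 to 25199455 reads in KO libraries and 14528870 to 23808344 reads in WT libraries. The libraries of pair 3 stood apart, with promoters taking 6.88% of the reads in KO replicate 3 and 6.04% in WT replicate 3, against 10.9% to 12.2% in the other 4 libraries. Y-linked genes held 124 to 145 CPM in the KO libraries, and 234, 197 and 0.619 CPM in WT replicates 1 to 3. All 7 neural precursor markers (Sox2, Nes, Pax6, Vim, Fabp7, Hes5 and Sox9) were measured, at a median percentile of 98.6 for signal per kb of gene body among all genes. Of the markers of other cells, 5 of 6 of neurons were measured (median percentile 12.3, with Tubb3 at 71.5) and 1 of 6 of endothelial and mesenchymal cells (Kdr, percentile 3.93). Of the markers of astrocytes and oligodendrocytes, 4 of 8 were measured (median percentile 92.8). They were Olig1, Olig2, Sox10 and Mbp, none of them an astrocyte marker, and Mbp stood at percentile 16.4. The summed levels of each of these lists overlapped between KO and WT libraries. Equal amounts of chromatin were precipitated and no spike-in was used, so a shift common to the whole genome, or fewer cells behind a library, cannot be told apart from scaling.

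All levels below are counts scaled to library size (CPM) after TMM scaling, with the SD over 3 libraries, and differences are log2 fold changes of KO over WT ± SE from limma-voom, blocked on replicate pair. A region was called at an adjusted p under 0.1, with Benjamini-Hochberg adjustment over all 36321 gene regions. In NPCs of both genotypes the proteasome genes carried more Pol II than the typical gene of the table. Their median level was 15.8 CPM per kb in promoters, 1.90 in gene bodies and 2.36 in TES regions, against 11.7, 1.40 and 1.64 CPM per kb over all genes. The median member stood at the 65.0th percentile of all genes in promoters, the 70.0th in gene bodies and the 70.4th in TES regions. Above the median of all genes were 27 of 43 members in promoters, 35 of 43 in gene bodies and 30 of 43 in TES regions. Without division by length, the median member had less gene body signal than the median gene. It had 25.7, 19.9 and 19.2 CPM in KO libraries, against 34.1, 35.1 and 38.8 CPM over all genes. In WT libraries it had 23.8, 21.2 and 18.4 CPM, against 33.9, 34.7 and 39.2 CPM.

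**Figure D1:**
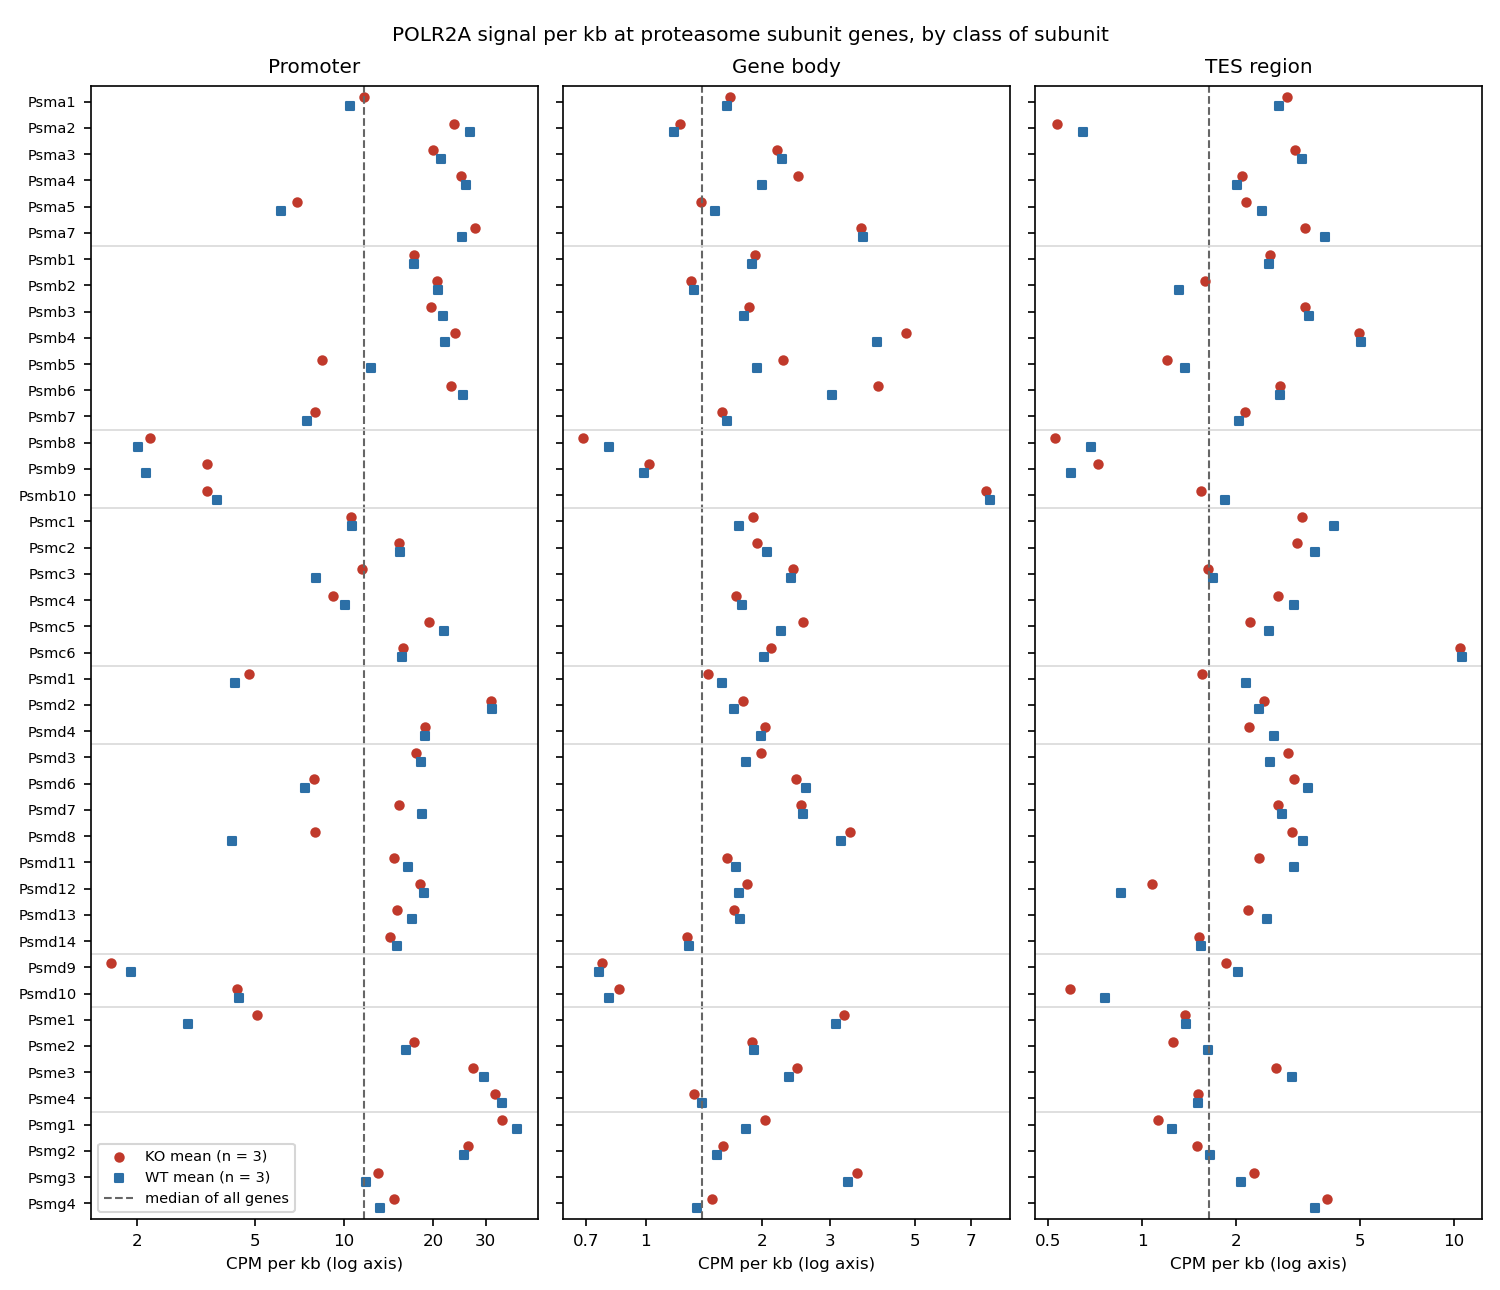
Mean Pol II signal per kb (CPM per kb, log axis) of each of the 43 genes in the promoter, gene body and TES region, with KO as circles and WT as squares (means of 3 libraries each) and the median of all genes as a dashed line. Horizontal lines part the classes, from top to bottom alpha ring, beta ring, inducible beta subunits, ATPases, other base subunits, lid, 19S chaperones, activators and 20S chaperones. KO and WT symbols lie close together for most genes, and Psmb8, Psmb9 and Psmb10 lie left of the line in promoters.

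The core genes had a median promoter level of 18.4 CPM per kb in KO and 18.9 in WT, and the regulatory genes one of 15.0 in KO and 15.7 in WT. In gene bodies the medians were 1.89 in KO and 1.85 in WT for core genes, and 1.90 in KO and 1.82 in WT for regulatory genes. In TES regions they were 2.14 in KO and 2.23 in WT for core genes, and 2.21 in KO and 2.55 in WT for regulatory genes. The core and the regulatory set thus had similar Pol II densities in all 3 regions, and the range inside each set was wider than the distance between their medians. Assembly chaperones, which help build the core barrel, had a promoter median of 20.5 CPM per kb in KO and 19.3 in WT. Psmg1, a chaperone of the alpha ring, had the highest promoter level of the 43 genes at 34.0 CPM per kb in KO and 38.4 in WT. Psme4, which encodes the activator PA200, followed with 32.3 in KO and 34.1 in WT.

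In promoters, the inducible catalytic subunits and the 19S chaperones had the lowest class medians. Of these genes, Psmb8, Psmb9 and Psmd9 have promoter windows that do not hold the start of their RefSeq gene. Psmb8, Psmb9 and Psmb10 replace the constitutive catalytic subunits in the immunoproteasome, the form made by immune cells and after interferon. Psmb8 had 2.22 CPM per kb of promoter in KO and 2.02 in WT, and was among the lowest 2 members in every region. Psmb9 had 3.45 CPM per kb of promoter in KO and 2.15 in WT. Psmb10 had 3.46 CPM per kb of promoter in KO and 3.72 in WT, yet the highest gene body level of all 43 genes at 7.62 CPM per kb in KO and 7.80 in WT. Psmb4, a beta ring subunit, came next in gene bodies with 4.74 CPM per kb in KO and 3.97 in WT. The body and the promoter of Psmb10 lie inside a gene annotated as antisense, Gm16156, and the counts do not tell the strands apart. Psmd9 and Psmd10, chaperones of the ATPase ring, had 1.64 and 4.34 CPM per kb of promoter in KO, against 1.92 and 4.42 in WT. Psmd10 is on the X chromosome, and its promoter had 2.52, 2.78 and 1.20 CPM in KO, against 1.90, 2.77 and 1.95 CPM in WT.

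Several low or high levels belonged to genes whose windows may not lie on the RefSeq gene. The annotation behind the windows was inferred, since counts followed the gene spans of GENCODE vM21 more closely than those of RefSeq. The GENCODE span of Psmd9 starts 58777 bases upstream of the RefSeq start, and that of Psma2 ends so far downstream (a span of 60997 bases in GENCODE, 12432 in RefSeq) that the body would cover AW209491. Psma2 had the lowest TES level of the 43 genes at 0.533 CPM per kb in KO and 0.647 in WT. By the outer end of the RefSeq gene span, the start lay outside the promoter window in 10 of 43 members (Psma3, Psmb1, Psmb7, Psmb8, Psmb9, Psmd1, Psmd2, Psmd9, Psmd13 and Psme1), although Psma3 and Psmd2 have another RefSeq start inside it. The promoters of these 10 had a median of 3.27 CPM in KO and 2.95 in WT, and those of the other 33 one of 7.93 in KO and 8.19 in WT. The promoter windows of 10 members overlapped another protein-coding gene on the opposite strand, such as Psma7 with Ss18l1, Psmb1 with Tbp and Psmc2 with Dnajc2. Those 10 had a median of 9.12 CPM in KO and 9.72 in WT, and the other 33 one of 7.36 in KO and 7.52 in WT. On either strand, another protein-coding gene overlapped the gene body window of 9 of 43 members and the TES window of 16 of 43. The reads in these windows cannot be assigned to the members alone. Psmc6, with the highest TES level of the 43 genes at 10.5 CPM per kb in KO and 10.6 in WT, is followed by Styx on the same strand, 613 bases of which lie in that TES window. Psmb4 had the next highest TES level at 4.94 CPM per kb in KO and 5.05 in WT.

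The first comparison was Pol II at the promoters of KO and WT NPCs. No promoter of the 43 passed the test, while 21 of 12107 promoters did (0.173%). None passed with edgeR either. With DESeq2 none was called, but 11 of the 43 had no adjusted p, among them Psmd8 and Psme1. The log2 fold changes from limma-voom ran from -0.54 to 0.93 with a median of -0.00, against 0.03 over all genes. They were above 0 in 21 of 43 members, and in 54.8% of all genes. At an unadjusted p under 0.05, 3 of 43 members were higher in KO (7.55% of all genes) and 1 was lower (2.4% of all genes). The median was 0.00 in core genes and -0.03 in regulatory genes, and a member's SE was typically 0.15.

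**Figure D2:**
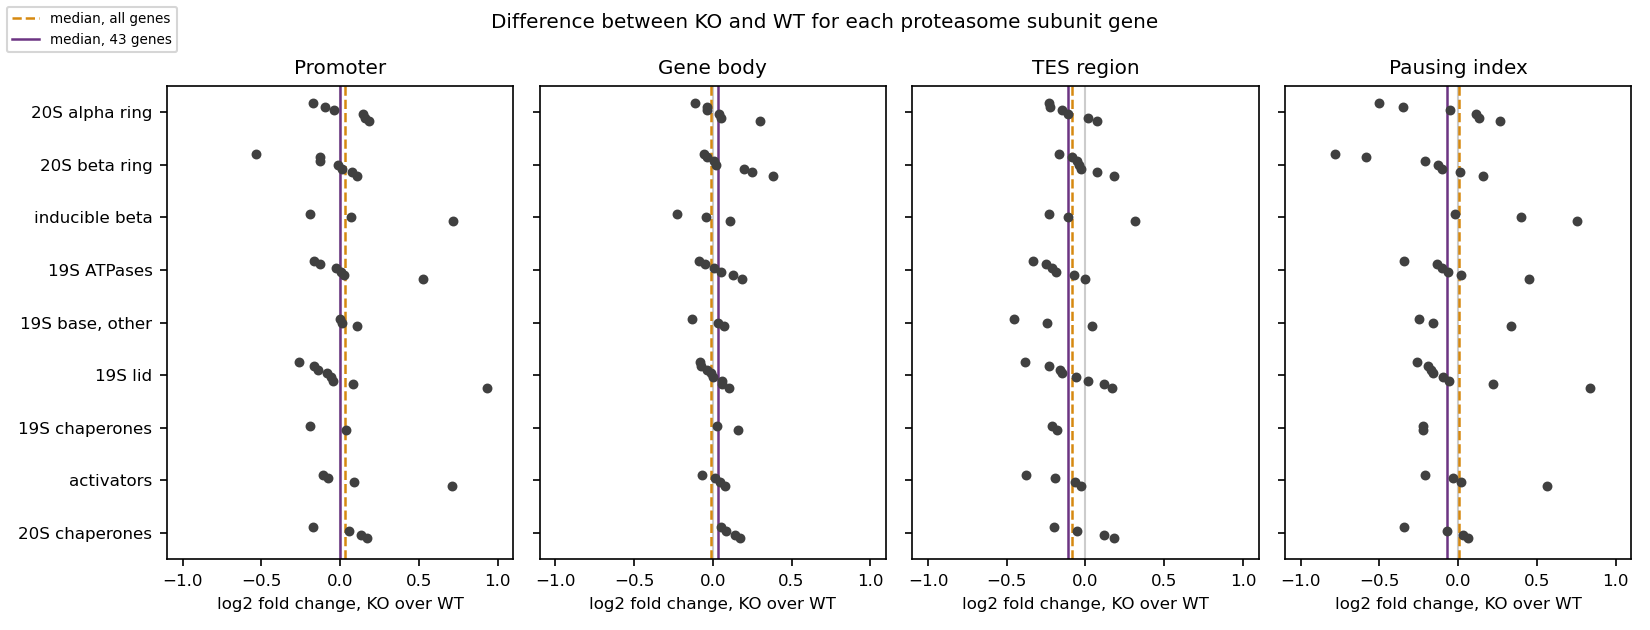
Log2 fold change of KO over WT for the promoter, gene body, TES region and pausing index (left to right), with a point for each of the 43 genes in rows by class. The solid line is the median of the 43 genes and the dashed line the median of all genes. Points gather around both lines, and the points farthest right in promoters are Psmd8 (0.93), Psmb9 (0.72), Psme1 (0.71) and Psmc3 (0.52).

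Psmd8, which encodes the lid subunit RPN12, had the smallest p of the 43 promoters. Its promoter held 60, 121 and 56 reads in KO replicates 1 to 3, against 22, 74 and 28 reads in WT replicates 1 to 3. This was 2.16, 5.80 and 3.96 CPM in KO, against 1.07, 2.93 and 2.27 CPM in WT. The groups overlapped, with KO replicate 1 under the WT replicates 2 and 3, but each KO library was above the WT library of its pair. The log2 fold change was 0.93 ± 0.21 (adjusted p = 0.165 from limma-voom), with 0.99, 0.98 and 0.79 in pairs 1 to 3. Its gene body was at 25.7, 21.4 and 17.0 CPM in KO, against 23.8, 22.6 and 14.6 CPM in WT (0.06 ± 0.10, adjusted p = 0.911). The promoter call of Psmd8 depended on the fit. Its adjusted p from limma-voom was 0.0884 with promoters fitted alone. It was 0.0301 without KO replicate 1, 0.0307 without WT replicate 1 and 0.073 without pair 1. With the pair as a block, these leave-out fits all compare KO with WT in pairs 2 and 3 only. The adjusted p was 0.0912 without KO replicate 3 and 0.0927 without WT replicate 3, which both rest on pairs 1 and 2. Over 17 alternatives it ran from 0.0301 to 1.

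Psmb5, the beta ring subunit with chymotrypsin-like activity, was the only member with a lower promoter level in KO at an unadjusted p under 0.05. Its promoter had 5.33, 4.70 and 2.62 CPM in KO, against 8.55, 5.86 and 4.06 CPM in WT. Each KO library was under the WT library of its pair, and the groups overlapped. The log2 fold change was -0.54 ± 0.17 (adjusted p = 0.416 from limma-voom), and its gene body differed by 0.20 ± 0.15 in the other direction. Psmb6 and Psmb7, which carry the caspase-like and the trypsin-like activity, had promoter log2 fold changes of -0.13 ± 0.14 and 0.08 ± 0.18.

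Psmc3 encodes an ATPase of the base. Its promoter had 4.53, 8.15 and 4.53 CPM in KO, against 3.76, 4.43 and 3.82 CPM in WT, with every KO library above every WT library (0.52 ± 0.19, adjusted p = 0.479). KO replicate 2 stood above the other KO libraries, and without it the log2 fold change was 0.25. Psme1 encodes an activator subunit induced by interferon, and its promoter had 1.30, 4.27 and 2.05 CPM in KO, against 1.66, 1.90 and 0.894 CPM in WT. It was higher in KO in pairs 2 and 3 and lower in pair 1 (0.71 ± 0.30, adjusted p = 0.578). Without pair 1 its log2 fold change was 1.16 ± 0.29 with an adjusted p of 0.0675 from limma-voom. Without KO replicate 1 or WT replicate 1 alone the adjusted p was 0.0216 or 0.0225. With the pair as a block, these fits all compare KO with WT in pairs 2 and 3 only, where Psme1 was higher in KO. They are therefore not separate results. Without KO replicate 2 the log2 fold change was 0.20, and over 17 alternatives the adjusted p reached 1. The RefSeq start of Psme1 lies 371 bases downstream of the start used for the window, so that window is upstream of the RefSeq promoter. Its partner Psme2 differed by 0.09 ± 0.15 in promoters, Psme3 by -0.11 ± 0.12 and Psme4 by -0.08 ± 0.11.

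**Figure D3:**
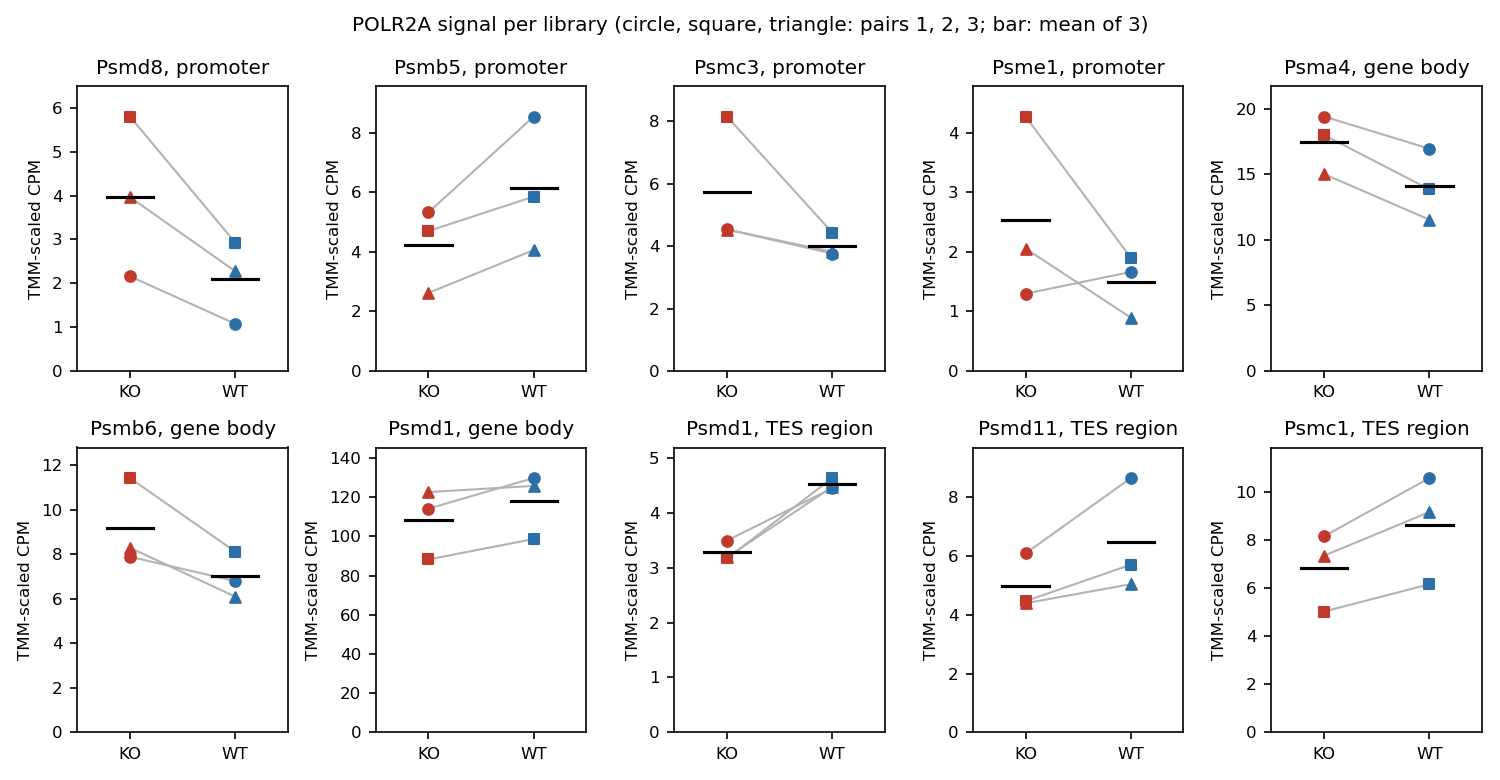
TMM-scaled CPM in each library (KO on the left, WT on the right of each panel) for the 10 gene regions with an unadjusted p under 0.05, with lines joining the libraries of a pair and a bar for the mean of 3. KO lies above WT in all pairs for Psmd8, Psmc3, Psma4 and Psmb6, below WT in all pairs for Psmb5, Psmd1, Psmd11 and Psmc1, and in pairs 2 and 3 only above WT for Psme1.

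The 250 bases upstream of the RefSeq start of Psmd8 and of Psmb5 are shown because these promoters had the smallest p in each direction. Sequences are RefSeq, GRCm38.p6, 5′ to 3′ on the strand of the gene, at chr7:29180674-29180923 (minus strand) for Psmd8 and chr14:54617996-54618245 (minus strand) for Psmb5. Capitals mark a GC box (GGGCGG) in Psmd8 and the core of an antioxidant response element (TGACNNNGC) in Psmb5, searched on both strands.
Psmd8: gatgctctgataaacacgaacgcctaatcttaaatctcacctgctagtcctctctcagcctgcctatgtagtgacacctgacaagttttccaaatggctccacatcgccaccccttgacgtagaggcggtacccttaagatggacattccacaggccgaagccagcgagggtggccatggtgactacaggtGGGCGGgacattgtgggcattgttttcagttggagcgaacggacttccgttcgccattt
Psmb5: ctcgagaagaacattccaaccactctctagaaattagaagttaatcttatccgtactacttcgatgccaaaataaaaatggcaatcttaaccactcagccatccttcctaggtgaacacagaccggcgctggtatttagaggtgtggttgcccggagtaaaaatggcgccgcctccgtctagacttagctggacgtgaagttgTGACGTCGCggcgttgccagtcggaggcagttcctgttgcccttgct

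Of the 43 genes, 36 had a RefSeq promoter of 300 bases (250 upstream to 50 downstream of the start) in the table used. The core of the antioxidant response element, TGACNNNGC on either strand, was in 6 of these 36 (16.7%) and in 14.6% of 9456 promoters. The 6 were Psmb5, Psmb6, Psmc6, Psmd9, Psmd12 and Psme4. The element is the known route by which subunit genes are raised together, so matches that lie wholly upstream of the start with 11 bases on each side inside the window are shown with these flanks, which leaves out Psmd12 and Psme4, and the core in capitals, with the position of its first base counted from the RefSeq start. They are at chr14:54618023-54618053 (minus strand, position -47) for Psmb5, chr11:70525337-70525367 (plus strand, position -9) for Psmb6, chr14:45329586-45329616 (plus strand, position -227, the core on the other strand) for Psmc6 and chr5:123228148-123228178 (plus strand, position -31) for Psmd9.
Psmb5: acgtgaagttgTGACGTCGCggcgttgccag
Psmb6: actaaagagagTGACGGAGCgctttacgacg
Psmc6: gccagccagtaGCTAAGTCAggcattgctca
Psmd9: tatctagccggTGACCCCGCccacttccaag

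The promoter log2 fold changes of the 6 genes were -0.54 for Psmb5, -0.13 for Psmb6, 0.02 for Psmc6, -0.04 for Psmd12, -0.08 for Psme4 and -0.19 for Psmd9, whose counted window does not hold the site. Of the other motifs searched, 2 were rarer and 1 more common in the proteasome promoters than in all promoters, which was not tested. A CCAAT box (CCAAT, either strand) was in 33.3% of the 36, against 39.4% of all promoters. A GC box (GGGCGG, either strand) was in 61.1%, against 68.5%. A TATA box (TATAAA, either strand) was in 4 of the 36 (11.1%), against 6.20%. GC content of the counted promoter windows had a median of 54.3% in the members and 58.5% in all genes. The rank correlation of GC content with the promoter log2 fold change was -0.11 across 12041 genes and 0.09 across the 43, which share libraries and are no independent replicates.

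In gene bodies, where elongating Pol II is counted, no member passed the test either, while 25 of 12107 gene bodies did (0.206%). The log2 fold changes ran from -0.23 to 0.38, a narrower range than at promoters, and the typical SE was 0.10. The median was 0.03, against -0.01 over all genes, and values were above 0 in 27 of 43 members, against 45.3% of all genes. At an unadjusted p under 0.05, 2 of 43 members were higher in KO (4.82% of all genes) and 1 was lower (3.59% of all genes). The median was 0.01 in core genes, 0.03 in regulatory genes and 0.11 in assembly chaperones, where all 4 were above 0.

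Psma4, an alpha ring subunit, had 19.4, 18.0 and 15.0 CPM in KO gene bodies, against 16.9, 13.8 and 11.5 CPM in WT. It was higher in KO in each of the 3 pairs (0.30 ± 0.11, adjusted p = 0.505 from limma-voom). Psmb6 had 7.88, 11.4 and 8.28 CPM in KO gene bodies, against 6.79, 8.11 and 6.09 CPM in WT. It too was higher in KO in each pair, with KO replicate 1 under WT replicate 2 (0.38 ± 0.14, adjusted p = 0.508). Psmd1, the large scaffold subunit RPN2 of the base, had 114, 88.2 and 123 CPM in KO gene bodies, against 130, 98.6 and 126 CPM in WT. It was lower in KO in each pair (-0.13 ± 0.06, adjusted p = 0.602). Its window also holds Htr2b on the opposite strand and part of Gm21972 on the same strand.

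The 6 ATPases of the base, which form the ring that pulls the substrate into the core, had gene body differences from -0.09 to 0.19 with a median of 0.03. Psmc5 was at 19.4, 14.9 and 17.6 CPM in KO, against 18.8, 11.8 and 14.9 CPM in WT (0.19 ± 0.12). Psmc2 was at 41.7, 33.7 and 31.6 CPM in KO, against 46.3, 34.8 and 32.6 CPM in WT (-0.09 ± 0.08). Neither had a group apart from the other. Psmc1 differed by 0.13 ± 0.09, Psmc3 by 0.01 ± 0.09, Psmc4 by -0.05 ± 0.12 and Psmc6 by 0.05 ± 0.08. Psmd2, the other large base subunit, and Psmd4, a ubiquitin receptor, differed by 0.07 ± 0.11 and 0.03 ± 0.10. In the lid, the deubiquitinase Psmd14 differed by -0.01 ± 0.06, the subunit Psmd11 by -0.08 ± 0.07 and Psmd8 by 0.06 ± 0.10. Among the inducible subunits, Psmb8 had 1.37, 2.54 and 3.40 CPM in KO gene bodies, against 1.71, 2.85 and 3.98 CPM in WT, lower in KO in each pair (-0.23 ± 0.21). Psmb9 and Psmb10 differed by 0.11 ± 0.21 and -0.05 ± 0.11.

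At TES regions, where Pol II terminates, no member passed the test, while 3 of 12107 TES regions did (0.0248%). Log2 fold changes leaned below 0 in the members as in the whole table. They ran from -0.45 to 0.31 with a median of -0.11, against -0.08 over all genes, and were above 0 in 11 of 43 members, against 34.4% of all genes. At an unadjusted p under 0.05, 3 members were lower in KO (4.84% of all genes) and 0 were higher (1.4% of all genes), and the typical SE was 0.18. With TES regions fitted alone, and so scaled among themselves, the median was -0.04 in the members and -0.01 over all genes. The pairs did not share the lean. Pairs 1 to 3 had medians over members of -0.26, -0.11 and 0.14.

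The medians of core and regulatory genes lay farther apart here than in promoters or gene bodies. The TES median was -0.07 in the 16 core genes, of which 5 were above 0, and -0.18 in the 23 regulatory genes, of which 4 were above 0. Among the 6 ATPases it was -0.20 and none was above 0, with values from -0.33 (Psmc1) to -0.01 (Psmc6). None of the 4 activators (median -0.13) or the 2 19S chaperones (median -0.20) was above 0 either. The 3 other base subunits had a median of -0.24, with 1 above 0. The TES windows of Psmc3, Psmc5 and Psmc6 overlap the protein-coding genes Slc39a13, Smarcd2 and Styx. All 3 members with an unadjusted p under 0.05 were regulatory. Psmd1 had 3.49, 3.17 and 3.19 CPM in KO TES regions, against 4.44, 4.63 and 4.47 CPM in WT. Every KO library was under every WT library (-0.45 ± 0.18, adjusted p = 0.535 from limma-voom). That window lies wholly inside Gm21972, a protein-coding gene on the same strand, so its reads cannot be assigned to Psmd1 alone. Psmd11 had 6.08, 4.46 and 4.39 CPM in KO, against 8.64, 5.70 and 5.04 CPM in WT (-0.38 ± 0.16, adjusted p = 0.562). Psmc1 had 8.17, 5.04 and 7.36 CPM in KO, against 10.6, 6.17 and 9.18 CPM in WT (-0.33 ± 0.14, adjusted p = 0.576). Both were lower in KO in each pair, with overlapping groups. Whether the core and the regulatory genes differed at TES regions was not tested, since genes are not replicates.

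Sums over the genes of a class in each library gave the same picture. In promoters the 16 core genes together had 164, 135 and 66.4 CPM in KO, against 157, 141 and 75.9 CPM in WT. The 23 regulatory genes had 206, 194 and 102 CPM in KO, against 214, 179 and 118 CPM in WT. Pair 3 was low in both genotypes, and no genotype was apart from the other. The ratio of core to regulatory signal was 0.796, 0.695 and 0.652 in KO promoters, against 0.735, 0.786 and 0.644 in WT promoters. In gene bodies it was 0.527, 0.516 and 0.494 in KO, against 0.508, 0.527 and 0.471 in WT. In TES regions it was 0.586, 0.590 and 0.664 in KO, against 0.597, 0.556 and 0.580 in WT, where KO was higher in pairs 2 and 3. The ratios of KO and WT libraries overlapped in every region. These sums were not divided by length and cover 16 and 23 genes, so the ratio compares libraries and not the densities of the 2 classes.

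**Figure D4:**
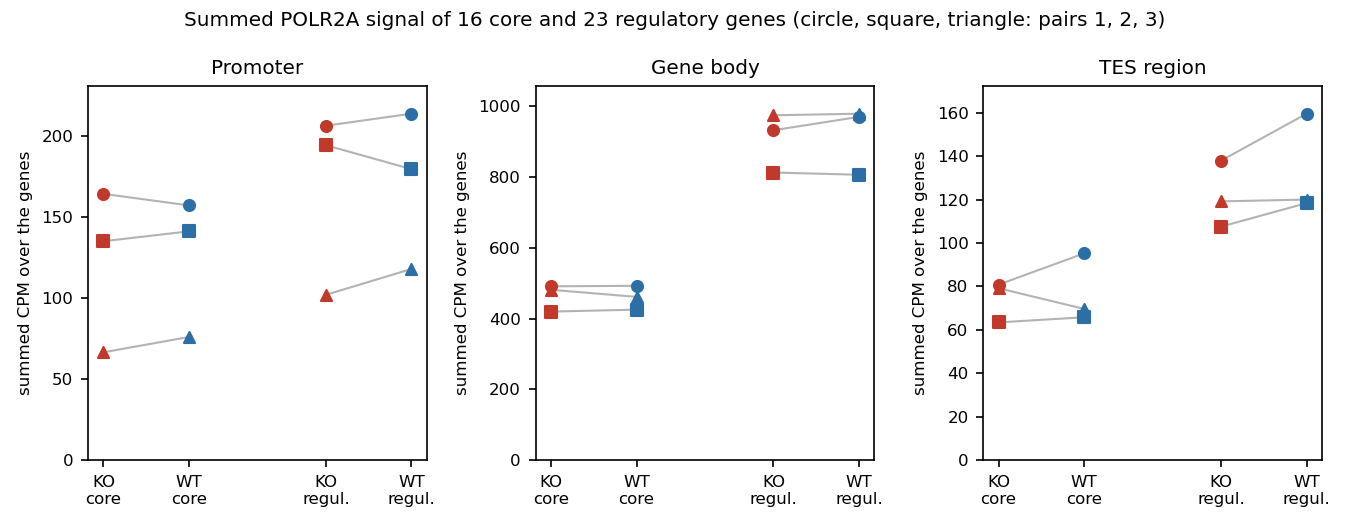
Summed TMM-scaled CPM of the 16 core genes and the 23 regulatory genes in each library (KO left of WT), in promoters, gene bodies and TES regions, with lines joining the libraries of a pair. In promoters the triangles of pair 3 lie lowest in both genotypes (66.4 CPM in KO and 75.9 CPM in WT for core genes), and in TES regions the regulatory sum of each pair is lower in KO.

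The pausing index compares Pol II at the promoter with Pol II in the body of the same gene. It was taken on the log2 scale from the promoter and gene body signal per base, and all 43 members were among the 12096 genes with enough reads. Its median over members was 3.21, 3.05 and 2.06 in KO libraries, against 3.08, 3.19 and 2.45 in WT libraries, and over all genes it was 3.15, 3.12 and 2.06 in KO, against 3.07, 3.11 and 2.12 in WT. The libraries of pair 3 were low throughout. Psme4 had the highest index at 4.53 ± 0.79 in KO and 4.56 ± 0.74 in WT, and Psmb10 the lowest at -1.06 ± 0.66 in KO and -1.04 ± 0.51 in WT (SD, n = 3 each).

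No member passed the pausing test, while 4 of 12096 genes did (0.0331%). The median difference was -0.07, against 0.01 over all genes, and 16 of 43 members were above 0, against 51.1% of all genes. At an unadjusted p under 0.05, 2 members were higher in KO (7.05% of all genes) and 2 were lower (3.65% of all genes). Psmd8 had an index of 0.10, 1.78 and 1.57 in KO, against -0.78, 0.72 and 1.00 in WT (0.84 ± 0.19, adjusted p = 0.247 from limma). Psmb9 had 2.18, 1.65 and 1.55 in KO, against 0.73, 1.39 and 1.00 in WT (0.75 ± 0.23, adjusted p = 0.304), with every KO library above every WT library. Its promoter held 50, 35 and 24 reads in KO, against 7, 42 and 15 reads in WT. WT replicate 1 had the fewest, the gap was widest in pair 1, and that window lies in Tap1 on the opposite strand. Psmb5 had an index of 2.01, 2.29 and 1.24 in KO, against 2.82, 2.62 and 2.45 in WT, with every KO library under every WT library (-0.78 ± 0.21, adjusted p = 0.281). Psmb6 had 3.22, 2.40 and 1.52 in KO, against 3.27, 3.21 and 2.41 in WT (-0.58 ± 0.23, adjusted p = 0.389). In Psmb5 the promoter was lower and the body higher in KO by more than 1 SE each, in Psmb6 the body was higher and the promoter differed by less than its SE, and in Psmd8 the promoter alone differed by more than its SE.

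These pausing calls moved with the fit. With the trend of the spread taken on the promoter count, Psmb5, Psmd8 and Psmb6 were called (adjusted p = 0.0362, 0.0691 and 0.0967), as were 256 of 12096 genes. Without pair 1, Psme1, Psmd8 and Psmb6 were called (adjusted p = 0.0297, 0.0904 and 0.0962), as were 353 genes. Over the alternatives run, the Psmd8 difference in pausing index stayed between 0.72 and 0.97 that of Psmb5 between -1.01 and -0.57, and that of Psmb9 between 0.40 (without pair 1 or either of its libraries) and 1.00.

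Genes that work with the proteasome were taken as a second list of 29 genes, for ubiquitin, shuttle factors, the unfoldase Vcp, the receptors and deubiquitinase at the 19S particle, the NRF1 pathway and the partners of ARMC5 in its ligase, and 27 were measured. None passed the test in any region or for the pausing index. At an unadjusted p under 0.05, 2 were higher and 1 lower in KO promoters (7.55% and 2.4% of all genes), 2 higher and 1 lower in gene bodies (4.82% and 3.59%), 0 higher and 3 lower in TES regions (1.4% and 4.84%), and 2 higher and 1 lower in the pausing index (7.05% and 3.65%). Adrm1, the ubiquitin receptor RPN13, had 6.33, 7.43 and 6.51 CPM in KO promoters, against 4.40, 6.33 and 2.84 CPM in WT, with KO replicate 1 level with WT replicate 2 and the other KO libraries above all WT libraries (0.54 ± 0.19, adjusted p = 0.462).

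In gene bodies, the shuttle factor Ubqln2 had 13.1, 12.4 and 9.13 CPM in KO, against 10.7, 8.74 and 6.42 CPM in WT (0.41 ± 0.13, adjusted p = 0.422), and Nfe2l2, which encodes a relative of NRF1, had 62.7, 57.1 and 58.1 CPM in KO, against 78.8, 62.0 and 61.0 CPM in WT (-0.19 ± 0.07, adjusted p = 0.537). Nfe2l2 was lower in KO TES regions as well (-0.45 ± 0.17, adjusted p = 0.508), followed by Ubqln4 (-0.40 ± 0.16, adjusted p = 0.540). For Nfe2l1, the gene of NRF1, the log2 fold changes were -0.04 ± 0.14 in promoters, -0.05 ± 0.08 in gene bodies and 0.14 ± 0.15 in TES regions. The medians of the 27 genes were -0.05 in promoters, 0.02 in gene bodies and -0.10 in TES regions.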

How the data were processed

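As the labels and methods describe, sonicated chromatin of NPCs was precipitated with an anti-RPB1 antibody (N-terminal domain). The submitters' notes name edgeR, limma, HOMER, MACS2, Picard, BWA, Trimmomatic and bcl2fastq 2.20, with GRCm38 (mm10) as the build. The authors deposited counts of reads for every gene region, whole numbers made with HOMER, after removing genes without signal in KO cells, and log2 CPM values that the authors derived from these counts with TMM and voom. For the annotation behind the windows, the version was not given in the sources used here. Counts followed GENCODE vM21 spans better than RefSeq spans (r of log counts with log span 0.832 against 0.514 over 641 genes whose spans differ by over 1.5 times).

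Here the counts were scaled with TMM over all 36321 regions and fitted with limma-voom (R 4.3.3, edgeR 4.0.16, limma 3.58.1), two-sided, with the replicate pair as a block. Deviations from the group mean correlated between same-numbered libraries (0.704, 0.661 and 0.628 in promoters, 0.876, 0.737 and 0.827 in gene bodies, 0.754, 0.562 and 0.668 in TES regions), which the methods call replicate pairs. No 2 libraries of a group were copies (chi-square per degree of freedom 28.5 to 76.5). Where nothing says that libraries came from separate fetuses, p-values measure the spread between these libraries. The pausing index added 0.5 to each count and needed a mean of 10 counts in promoter and body. The test with limma used the log2 ratio of promoter to body counts without length, with a trend on the mean of that ratio. Length cancels in the difference between KO and WT, but not in the trend. Alternatives were other scalings, edgeR, DESeq2 1.42.0, a filter of 10 counts, separate fits per region, the deposited log2 CPM, no block, and fits without each library and pair. With the block, a fit without a library draws its comparison of KO with WT from the remaining pairs, as does the fit without that pair.

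Members were matched by symbol, and the members and lists were chosen with earlier results of these data known. Named genes were the 3 smallest p per region and for the index, the 2 highest and 2 lowest levels per region, a fixed set of subunits, and the 2 smallest p of the pathway list per region. Others named were chosen after their values were seen. Some genes of the pathway and marker lists are not reported here. Motif searches used RefSeq promoters of GRCm38.p6. Counting error is only part of the spread, since PCR copies are not independent molecules.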

Additional observations from a re-analysis of the deposited data

How the results depend on the processing

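No member was called in gene bodies or TES regions under any alternative run. Without the replicate block, 0 members were called in promoters, gene bodies, TES regions and the pausing index, and 0 genes of the whole table. The number of members called in promoters was 1 with each region fitted separately and 0 to 2 with a library or a pair left out. The 2 were called without pair 1, KO replicate 1 or WT replicate 1, where 246, 356 and 355 of all promoters were called. In the pausing index the number of members called was 1 with a mean of at least 30 counts and 3 with the trend on the promoter count. It was 0 to 3 with a library or a pair left out. It reached 3 without pair 1, KO replicate 1 or WT replicate 1, where 353, 366 and 367 of all genes were called. The median log2 fold change of gene bodies was 0.0521 with library totals as scaling, 0.0667 with scaling on low-signal gene bodies and 0.0183 to 0.0530 with a library or a pair left out. The median difference in pausing index was -0.125 to 0.0296 with a library or a pair left out, above 0 only without libraries of pair 3. The causes were not tested. Over the whole table, promoters called numbered 67 with each region fitted separately, 6 with library totals, 12 with low-signal scaling, 12 with the deposited log2 CPM and 2 to 246 with a pair left out, against 21. Gene bodies called numbered 4, 13, 16, 19 and 6 to 152 in the same order, against 25, and 38 with DESeq2. TES regions called numbered 14, 1, 3, 2 and 3 to 44, against 3, and 5 with DESeq2. For the pausing index they were 68, 256 and 12 to 353 with a mean of at least 30 counts, the trend on the promoter count and a pair left out, against 4. DESeq2 gave no adjusted p for 11 promoters, 1 gene body and 18 TES regions of the members. Typical SEs of 0.15 in promoters and 0.18 in TES regions limit what could be called, and member promoters held 2726 to 11952 reads per library in all.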
